A study of Mus musculus with 3 samples.

Results

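The miR-148 and miR-152 family was measured here in mouse tibialis anterior (TA) muscle, which lifts the foot, during the first days after injury. Its members were taken by name, as mmu-miR-148a-3p, mmu-miR-148a-5p, mmu-miR-148b-3p and mmu-miR-152-3p, and all 4 were listed among the 1138 mature miRNAs of each library. Small RNAs were sequenced from C57BL/6 wild type mice aged 10 weeks on day 0 (described as uninjured), day 1 and day 3 post-CTX. Cardiotoxin (CTX) is a snake venom toxin that destroys myofibers when it is injected into a muscle and spares many of the stem cells that rebuild them. A saline injection is named as a control in the treatment notes, and whether the day 0 muscles received it is not given. Each library was made from a pool of 4 samples, so the 3 libraries, 1 per time point, carry no replicates and say nothing of how much mice differ. The libraries of days 0, 1 and 3 held 8507580, 6421056 and 9795076 reads, with at least 1 read for 784, 915 and 987 miRNAs. The level of each miRNA is its count per 1000000 reads of the library (CPM), and a level of 3 reads corresponded to 0.353, 0.467 and 0.306 CPM in the same order. All intervals are 95% intervals. They cover counting error only, and the counts are of amplified reads, which are not independent molecules, so the true error is wider. For the same reason no p-value is given, and each difference is between libraries.

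A miRNA is cut from a hairpin transcript, whose left and right arms yield the -5p and the -3p product. The mature miRNA guides a silencing complex to messenger RNAs, mainly by pairing of its seed, bases 2 to 8 from the 5′ end, so miRNAs with the same seed are treated as a family with overlapping targets. The miR-148 and miR-152 family is known as a regulator of DNA methyltransferase transcripts and is expressed in many tissues. In muscle, miR-148a has been described as promoting the differentiation of myoblasts, the precursors that fuse into myofibers.

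The mature sequences are shown because the family is defined by them and because its members differ at few bases. They were taken from the RefSeq annotation of GRCm38.p6, in which all 4 members were matched, and the seed is in capitals.
mmu-miR-148a-3p: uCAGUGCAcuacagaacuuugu
mmu-miR-148b-3p: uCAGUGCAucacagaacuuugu
mmu-miR-152-3p: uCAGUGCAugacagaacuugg
mmu-miR-148a-5p: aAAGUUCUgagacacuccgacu

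The 3 -3p members carried the seed CAGUGCA. It was found in no other miRNA among the 953 of the 1138 listed miRNAs that had a RefSeq mature sequence, and in no other of the 1679 mature names in that annotation. Positions counted from 1 at the 5′ end, miR-148b-3p differed from miR-148a-3p by C9U and U10C, just past the seed. miR-152-3p differed from miR-148a-3p over the 21 positions compared by C9U, U10G and U20G, and from miR-148b-3p by C10G and U20G. The longest run of identical bases in the same positions was 12 for miR-148a-3p and miR-148b-3p and 9 for each pair with miR-152-3p. No stretch of 18 bases, the shortest RNA selected for sequencing, was shared between any of the 4 members and any other mature miRNA in the annotation. The rule by which reads with mismatches were assigned is not given in the sources used here. miR-148a-5p, from the opposite arm, had the unrelated seed AAGUUCU, which it shared with miR-148b-5p and which differs from the AGGUUCU of miR-152-5p.

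The hairpins are shown to place both arms, which are in capitals, the -5p arm first. They were also taken from RefSeq.
Mir148a: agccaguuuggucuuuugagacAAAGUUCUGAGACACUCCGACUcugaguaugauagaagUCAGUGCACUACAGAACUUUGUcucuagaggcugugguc
Mir148b: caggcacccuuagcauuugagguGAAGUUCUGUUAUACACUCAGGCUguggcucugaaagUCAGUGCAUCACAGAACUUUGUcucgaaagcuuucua
Mir152: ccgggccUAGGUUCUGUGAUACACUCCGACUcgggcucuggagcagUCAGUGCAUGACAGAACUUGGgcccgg

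The hairpins lie on 3 chromosomes in GRCm38. Mir148a is at chr6:51269812-51269910 on the minus strand, with miR-148a-3p at chr6:51269829-51269850 and miR-148a-5p at chr6:51269867-51269888. It overlapped no other gene of the GENCODE M21 annotation, and the nearest protein-coding gene, Nfe2l3, was 162760 bases away. Mir148b is at chr15:103285125-103285221 on the plus strand, with miR-148b-3p at chr15:103285185-103285206, within an intron of Copz1 (chr15:103272714-103299868, plus strand). Mir152 is at chr11:96850393-96850465 on the plus strand, with miR-152-3p at chr11:96850439-96850459, within an intron of Copz2 (chr11:96849870-96861203, plus strand). Copz1 and Copz2 are paralogs that encode subunits of the coatomer, the coat of vesicles in the Golgi, so the hairpins of miR-148b and miR-152 lie in related host genes and that of miR-148a lies alone.

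The first question was how abundant the family was in uninjured and injured muscle. Summed over its 3 -3p members, it held 496, 1738 and 1130 reads on days 0, 1 and 3, which is 58.3 CPM (53.3 to 63.7), 270.7 CPM (258.1 to 283.7) and 115.4 CPM (108.7 to 122.3). The seed CAGUGCA ranked 98 by summed level on day 0 among the 565 seeds with reads of the 953 miRNAs matched to RefSeq, then 65 of 655 and 105 of 709 in the injured libraries. Listed miRNAs without a match have no seed here and enter neither the ranks nor the sums. The family was thus highest in the day 1 library, and none of the intervals overlapped.

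miR-148a-3p, the member described in myoblasts, had 227, 1072 and 721 reads on days 0, 1 and 3. Its level was 26.7 CPM (23.3 to 30.4) on day 0, 167.0 CPM (157.1 to 177.3) on day 1 and 73.6 CPM (68.3 to 79.2) on day 3. By reads it ranked 193, 137 and 190 of the 1138 miRNAs. It was the highest of the members on days 1 and 3, and each day's interval lay apart from the others.

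miR-152-3p, the member encoded within Copz2, had 228, 545 and 269 reads. Its level was 26.8 CPM (23.4 to 30.5) on day 0, 84.9 CPM (77.9 to 92.3) on day 1 and 27.5 CPM (24.3 to 30.9) on day 3, with ranks of 192, 165 and 258. The day 1 library stood apart, and the intervals of days 0 and 3 overlapped almost fully.

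miR-148b-3p, the member encoded within Copz1, was the least abundant -3p member in every library, with 41, 121 and 140 reads. Its level was 4.82 CPM (3.46 to 6.54) on day 0, 18.8 CPM (15.6 to 22.5) on day 1 and 14.3 CPM (12.0 to 16.9) on day 3, and it ranked 288, 272 and 308. Day 0 lay below both injured libraries, whose intervals overlapped.

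miR-148a-5p, the product of the opposite arm of the Mir148a hairpin, was near the limit of detection, with 5, 15 and 19 reads. Its level was 0.588 CPM (0.191 to 1.37) on day 0, 2.34 CPM (1.31 to 3.85) on day 1 and 1.94 CPM (1.17 to 3.03) on day 3. The day 0 interval overlapped those of both day 1 and day 3.

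**Figure D1:**
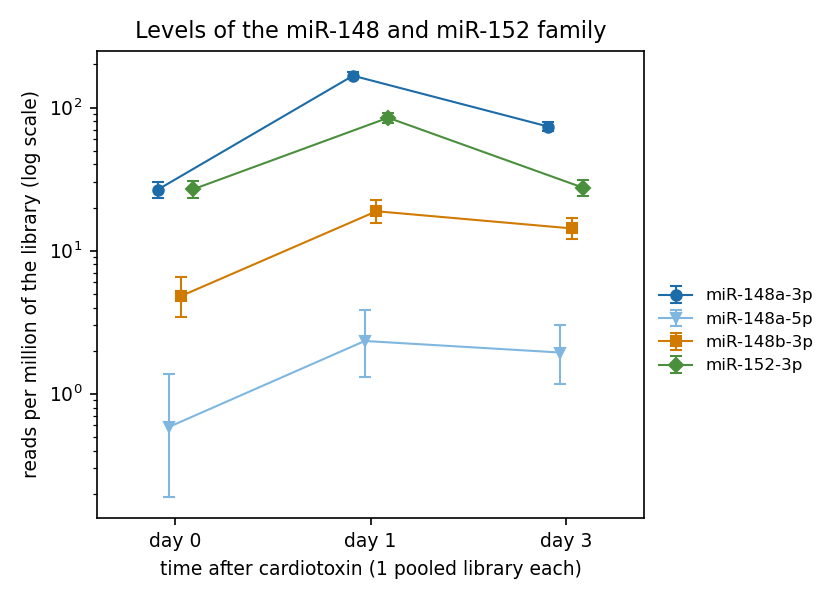
Level of each member in CPM, on a log axis, against the day after cardiotoxin, with 1 pooled library per day. Bars are exact 95% intervals that cover counting error only, lines join libraries to guide the eye, and miR-148a-3p and miR-152-3p are highest on day 1, at 167.0 and 84.9 CPM, while the day 1 and day 3 intervals of miR-148b-3p and miR-148a-5p overlap.

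The second question was how each member differed between injured and uninjured muscle. A miRNA was called when its CPM differed at least 2-fold and it had at least 10 reads in at least 1 of the 2 libraries. The comparisons of day 1 and day 3 with day 0 share the day 0 library, so their values stand side by side and are not independent.

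On day 1 relative to day 0, all 4 members were called higher, against 55.3% called higher and 12.0% called lower among the 532 miRNAs tested. Of these members, miR-148a-5p had 5 reads on day 0 and 15 on day 1. It met the read minimum only through the library in which it was higher, so nothing is drawn from its call. The 3 -3p members were all called higher without it. miR-148a-3p was 6.26-fold higher, a log2 ratio of 2.65 (2.44 to 2.86). miR-148a-5p had a log2 ratio of 1.99 (0.46 to 3.81), miR-148b-3p of 1.97 (1.45 to 2.52) and miR-152-3p of 1.66 (1.44 to 1.89), or 3.17-fold. All 4 intervals lay above 0, that of miR-148a-5p with a lower bound under the 2-fold limit. Being called higher was the commoner outcome for any miRNA in this comparison, and the median log2 ratio over all those tested was 1.28. miR-148a-3p lay 1.37 above that median, higher than 75.2% of the miRNAs tested, and miR-152-3p lay 0.39 above it, higher than 58.3%. The summed family was 4.64-fold higher, with a log2 ratio of 2.21 (2.07 to 2.36).

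In the day 3 library relative to day 0, miR-148a-3p, miR-148a-5p and miR-148b-3p were called higher and miR-152-3p was within 2-fold. Here too miR-148a-5p, with 5 reads on day 0 and 19 on day 3, met the minimum only through the library in which it was higher. With 1 CPM added its log2 ratio was 0.89 and the call was lost, so nothing is drawn from it. The background was 58.5% called higher and 10.0% called lower among 569 miRNAs tested, with a median log2 ratio of 1.47. miR-148a-3p had a log2 ratio of 1.46 (1.25 to 1.69), miR-148b-3p of 1.57 (1.06 to 2.11) and miR-148a-5p of 1.72 (0.25 to 3.50). miR-148a-3p and miR-148b-3p therefore sat at the middle of all miRNAs, 0.01 below and 0.09 above their median. miR-152-3p had a log2 ratio of 0.04 (-0.22 to 0.30), a level 1.02 times that of day 0. It lay 1.44 below the median, with 23.9% of the miRNAs tested below it. The summed family, miR-152-3p included, had a log2 ratio of 0.98 (0.83 to 1.14), just within 2-fold.

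Between the injured libraries, day 3 relative to day 1, miR-148a-3p and miR-152-3p were called lower and the other 2 members were within 2-fold. Among 583 miRNAs tested, 25.0% were called higher and 17.7% lower, and the median log2 ratio was 0.02. miR-148a-3p was 2.27-fold lower, a log2 ratio of -1.18 (-1.32 to -1.04), and miR-152-3p was 3.09-fold lower, a log2 ratio of -1.63 (-1.84 to -1.41). Only 14.9% and 9.43% of the miRNAs tested lay below them. miR-148b-3p had a log2 ratio of -0.40 (-0.76 to -0.04) and miR-148a-5p of -0.27 (-1.32 to 0.81), and only the interval of the latter held 0. The summed family was 2.35-fold lower, with a log2 ratio of -1.23 (-1.34 to -1.12).

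**Figure D2:**
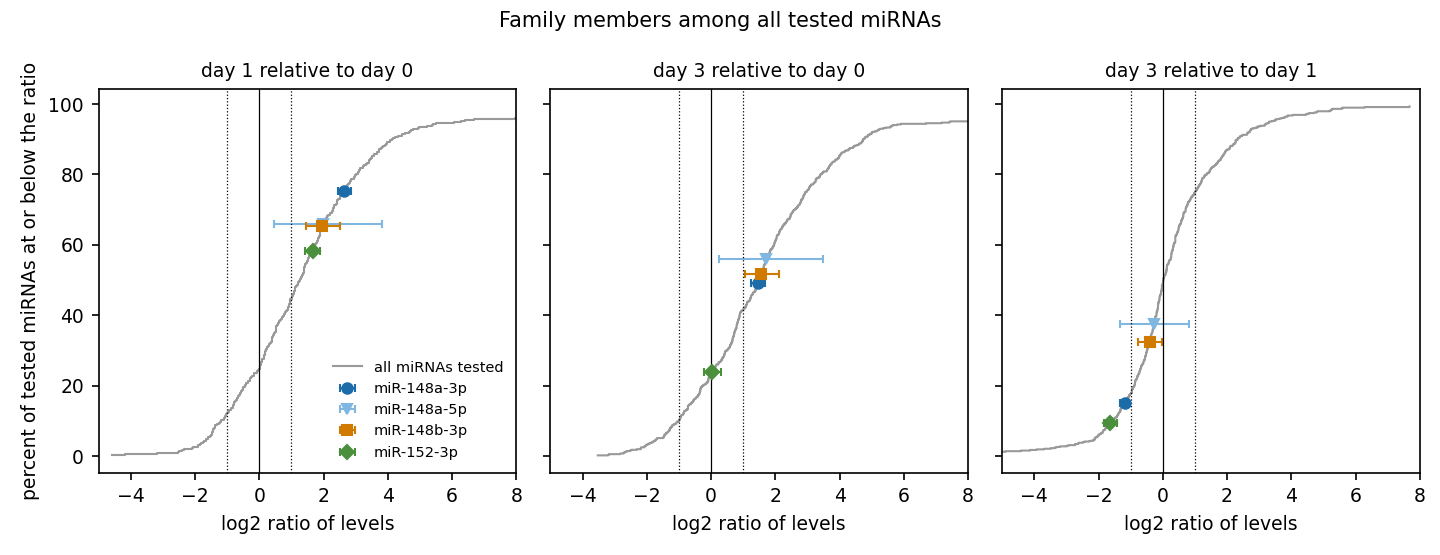
Log2 ratio of levels of each member on the horizontal axis, with 95% intervals for counting error, placed on the cumulative distribution of all miRNAs tested in that comparison (vertical axis, percent of miRNAs at or below the ratio; the horizontal axis stops at 8, so the few miRNAs beyond it are not drawn). Dotted lines mark 2-fold, and relative to day 0 miR-152-3p moves from 1.66 on day 1 to 0.04 on day 3 while the other -3p members stay above 1.

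The levels compared above depend on what the library total contains, and the choice of scaling moved them together. TMM factors, which assume that most miRNAs do not differ, lowered every day 1 to day 0 log2 ratio by 0.94 and every day 3 to day 0 ratio by 0.93, and median-of-ratios factors by 1.04 and 1.12. With TMM, 3 members were called higher on day 1, none on day 3 relative to day 0, and 2 lower on day 3 relative to day 1. The 3 include miR-148a-5p, from whose call nothing is drawn, and leave out miR-152-3p, with a log2 ratio of 0.72. Over all miRNAs TMM called 187 of 532 higher on day 1, 231 of 569 higher on day 3 relative to day 0, and 102 of 583 lower on day 3 relative to day 1. Median-of-ratios factors called 1 member, miR-148a-3p, higher on day 1 and 1, miR-152-3p, lower on day 3 relative to day 0, beside 176 of 532 miRNAs higher and 141 of 569 lower. The day 3 to day 1 log2 ratio of miR-148a-3p was -0.86 with the deposited expression values and -0.57 without scaling, so it was then no longer called lower, whereas that of miR-152-3p was -1.31 and -1.02. Over all miRNAs, 72 of 583 were then lower with the expression values and 59 of 583 without scaling. The share of calls that were higher over all miRNAs went with TMM from 82.1% to 59.2% on day 1 and from 85.4% to 64.7% on day 3. miR-148a-3p on day 1 remained at least 2-fold higher than on day 0 under all 6 scalings, with log2 ratios of 1.60 to 2.65. miR-152-3p on day 3 relative to day 0 ranged from -1.08 with median-of-ratios factors to 0.24 without scaling, so neither its sign nor its place within 2-fold held over the scalings. The small day 3 to day 1 ratio of miR-148b-3p was 0.21 without scaling and -0.48 with median-of-ratios factors, so its sign depended on the scaling too, as did that of miR-148a-5p, from -0.35 to 0.34.

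**Figure D3:**
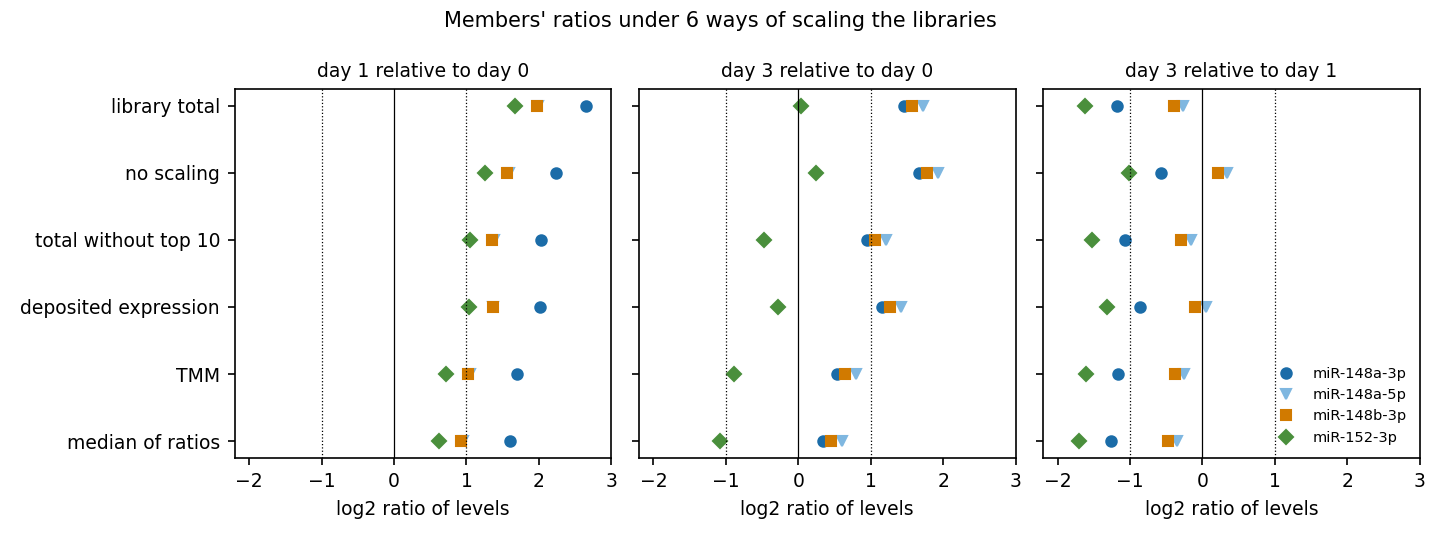
Log2 ratio of each member (horizontal axis) under 6 ways of scaling the libraries (vertical axis) in the 3 comparisons, with dotted lines at 2-fold. The members shift nearly together from row to row and miR-152-3p is the lowest member in every row, running on day 3 relative to day 0 from -1.08 to 0.24.

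Ratios within a library do not depend on the scaling, so the make-up of the family was compared next. The mature sequences of the -3p members are 21 or 22 bases long, so no correction for length was made. The lengths of the reads themselves were not examined, and how well each sequence is ligated and amplified was not measured. miR-148a-3p made up 45.8% (Wilson interval, 41.4 to 50.2) of the reads of the -3p members on day 0, 61.7% (59.4 to 63.9) on day 1 and 63.8% (61.0 to 66.6) on day 3. miR-152-3p made up 46.0% (41.6 to 50.4), 31.4% (29.2 to 33.6) and 23.8% (21.4 to 26.4) on the same days. miR-148b-3p made up 8.27% (6.15 to 11.0), 6.96% (5.86 to 8.26) and 12.4% (10.6 to 14.4). Uninjured muscle thus held miR-148a-3p and miR-152-3p at levels that could not be told apart at this depth, whereas both injured libraries held more miR-148a-3p.

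The ratio of miR-148a-3p to miR-152-3p was 0.996 (0.825 to 1.20) on day 0, 1.97 (1.77 to 2.18) on day 1 and 2.68 (2.33 to 3.09) on day 3. That of miR-148b-3p to miR-152-3p was 0.180 (0.126 to 0.252), 0.222 (0.181 to 0.271) and 0.520 (0.421 to 0.641). miR-148a-3p exceeded miR-148b-3p 5.54-fold (3.96 to 7.92), 8.86-fold (7.34 to 10.8) and 5.15-fold (4.29 to 6.22). In order of level the -3p members therefore ran miR-148a-3p, miR-152-3p, miR-148b-3p on days 1 and 3, with every neighbouring pair apart, and on day 0 only the first pair was not distinguishable.

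The members' log2 ratios were also compared with each other, in 9 comparisons of -3p pairs. The interval of the difference excluded 0 in 7 of them. On day 1 relative to day 0, miR-148a-3p exceeded miR-152-3p by 0.98 (0.67 to 1.29) and miR-148b-3p by 0.68 (0.09 to 1.25). miR-148b-3p and miR-152-3p differed by 0.30 (-0.27 to 0.90), an interval that includes equal changes and also a difference of nearly 2-fold. By day 3, relative to day 0, miR-152-3p stood apart from the rest, by 1.43 (1.09 to 1.77) below miR-148a-3p and by 1.53 (0.95 to 2.13) below miR-148b-3p. There miR-148a-3p and miR-148b-3p differed by -0.10 (-0.69 to 0.46). On day 3 relative to day 1, miR-148b-3p had the least negative log2 ratio of the -3p members. The ratio of miR-148a-3p minus that of miR-148b-3p was -0.78 (-1.17 to -0.39), and miR-148b-3p exceeded miR-152-3p by 1.23 (0.80 to 1.65). The changes of miR-148b-3p and miR-152-3p relative to day 0 thus lay further apart on day 3 than on day 1, while their levels came closer, with the ratios of 0.222 and 0.520 given above.

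**Figure D4:**
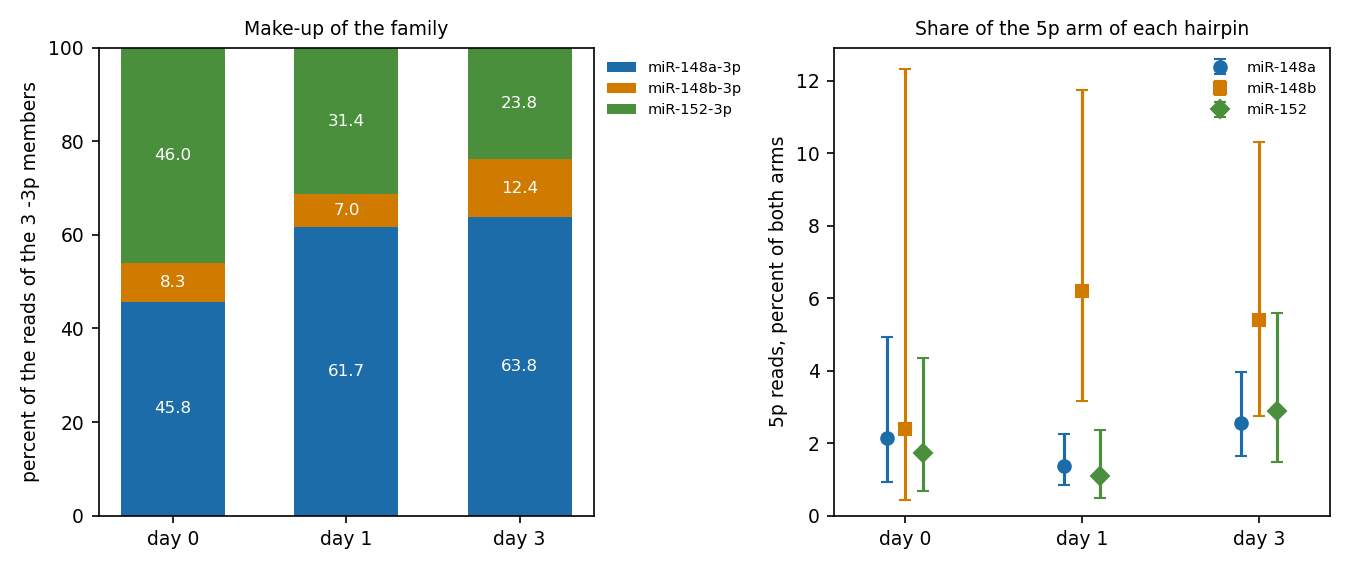
Left, percent of the reads of the 3 -3p members (vertical axis) held by each member in the library of each day. Right, reads of the -5p product as a percent of both arms of each hairpin, with Wilson 95% intervals, where miR-152-3p goes from 46.0% to 23.8% of the family while the -5p shares stay between 1.09% and 6.20%.

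The arms of each hairpin were set side by side, since a hairpin may yield mostly 1 of its products. miR-148a-5p made up 2.16% (0.924 to 4.94) of the reads of its hairpin on day 0, 1.38% (0.838 to 2.26) on day 1 and 2.57% (1.65 to 3.98) on day 3. The -3p product was thus 45.4, 71.5 and 37.9 times as abundant. Over the 151, 177 and 201 hairpins with at least 100 reads in the same libraries, the median -5p share was 81.3%, 74.9% and 69.8%, and 32, 27 and 32 of them had a lower -5p share than Mir148a. The other hairpins also had few reads on their -5p arm, under the 10 needed for a call in every library. miR-148b-5p had 1, 8 and 8 reads, or 2.38% (0.422 to 12.3), 6.20% (3.18 to 11.8) and 5.41% (2.76 to 10.3) of its hairpin. miR-152-5p had 4, 6 and 8 reads, or 1.72% (0.672 to 4.35), 1.09% (0.500 to 2.36) and 2.89% (1.47 to 5.59).

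The -3p arm dominated all 3 hairpins in every library. A change in arm use was not detectable at this depth. For Mir148a the log2 ratio of -5p to -3p reads differed by -0.65 (-2.21 to 1.18) on day 1 and by 0.26 (-1.23 to 2.05) on day 3 from that of day 0, intervals wide enough to hold the median absolute change of 0.68 and 0.57 found over 33 better covered hairpins.

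Members of 1 seed family can be made from separate loci, and their spread was set beside that of other families. Among -3p members, the log2 ratios spanned 0.98 on day 1 relative to day 0, 1.53 on day 3 relative to day 0 and 1.23 on day 3 relative to day 1. The 9 other seed groups with 3 to 9 members of at least 100 reads in every library had median spans of 1.31, 2.06 and 1.13. These groups hold only the miRNAs matched to RefSeq, so a group may lack members, its span may be understated, and no order of the spans is drawn. miR-148b-3p, with 41 reads on day 0, would not itself meet that minimum. The median log2 ratio of the 3 -3p members was 1.97 on day 1 relative to day 0, exceeded by the median of 1 of the 9 groups. For day 3 relative to day 0 their median of 1.46 was exceeded by 4 of the 9, and on day 3 relative to day 1 that of -1.18 was exceeded by 8 of the 9. The day 1 median is the value of miR-148b-3p, whose interval of 1.45 to 2.52 holds the 1.89 of the group with miR-92a-3p. Groups may lack members here too, so no order of the medians is drawn either.

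The miRNAs with the most similar pattern were sought among 214 miRNAs with at least 100 reads in every library, by Euclidean distance in the log2 ratios of day 1 and day 3 to day 0, over 3 libraries. Nearest to miR-148a-3p were miR-23a-3p (distance 0.34, log2 ratios 2.31 and 1.40), miR-146b-5p (0.39) and miR-340-5p (0.48). Nearest to miR-148b-3p were miR-425-5p (0.10, log2 ratios 1.89 and 1.63), miR-450a-5p (0.25) and miR-181d-5p (0.31). Nearest to miR-152-3p were miR-10a-5p (0.18, log2 ratios 1.51 and 0.13), miR-338-5p (0.20) and miR-126a-5p (0.24, log2 ratios 1.66 and -0.20), the last from the hairpin of the endothelial miR-126a. Nearest to the summed family were miR-186-5p (0.36), miR-140-3p (0.38) and miR-16-5p (0.39). None of these was among the nearest 3 of more than 1 -3p member, but with a minimum of 1000 reads miR-23a-3p was among the nearest 3 of both miR-148a-3p and miR-148b-3p. A likeness over 3 libraries is a description of these libraries only.

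Other miRNAs known to act on DNA methyltransferase transcripts were listed for comparison, as miR-29a-3p, miR-29b-3p, miR-29c-3p, miR-185-5p, miR-342-3p and miR-126a-3p. On day 1 relative to day 0, 3 of the 6 were called higher and 1 lower, beside 55.3% and 12.0% of all miRNAs tested, with a median log2 ratio of 0.77, beside 1.28. In the day 3 library relative to day 0, 2 were higher and 1 lower, beside 58.5% and 10.0%, with a median of 0.20, beside 1.47. Comparing day 3 with day 1, none was higher and 1 was lower, beside 25.0% and 17.7%, with a median of -0.06, beside 0.02. miR-342-3p had log2 ratios of 2.05 on day 1 and 2.52 on day 3, and miR-29b-3p of 1.41 and 1.72. miR-29c-3p, by contrast, had log2 ratios of -1.21 and -2.03. miR-126a-3p, which is also among the vascular markers below, had 1.15 and -0.01, a day 1 excess that was absent on day 3, as for miR-152-3p. The listed miRNAs thus did not share 1 pattern with each other or with the family.

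Marker miRNAs of the cell types in an injured muscle differed between the same libraries. The muscle miR-1a-3p was at 233587 CPM on day 0, 73841 on day 1 and 88096 on day 3, so the defining miRNA of the labelled tissue was abundant in every library. The 7 myofiber markers together held 26.2%, 8.69% and 9.75% of the reads, with 5 of 6 tested called lower on day 1, and 4 of 7 called lower on day 3, when 1 was called higher, miR-208b-3p with 10 reads. The 6 leukocyte markers held 0.535%, 2.09% and 0.920%, with 4 called higher on each day. On day 0 most of that sum was miR-150-5p, which was within 2-fold on both days (log2 ratios 0.81 and -0.57), whereas miR-223-3p had log2 ratios of 6.32 and 4.28, and miR-146a-5p of 2.54 and 2.87. The 5 stromal and vascular markers held 9.37%, 19.4% and 8.60%, with 4 called higher on day 1 and 2 on day 3. The 2 erythroid markers held 0.714%, 2.53% and 1.26%, both called higher on day 1 and neither on day 3. Over all miRNAs tested, 55.3% were called higher and 12.0% lower on day 1, and 58.5% and 10.0% on day 3, both relative to day 0. No marker was at 0 in any library. The leukocyte, stromal and vascular, and erythroid sums were all highest on day 1 in CPM, as were miR-148a-3p and miR-152-3p. Most of the stromal and vascular sum was miR-126a-3p and miR-143-3p, which on day 3 had log2 ratios to day 0 of -0.01 and -0.47, beside 0.04 for miR-152-3p. The stromal miR-199a-3p and miR-214-3p instead had day 3 to day 0 log2 ratios of 1.64 and 2.99. The part of these cells in the family's values was not tested, and in bulk muscle a change in the number of cells of a type and a change in RNA per cell cannot be told apart.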

How the data were processed

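The authors sequenced RNAs of 18 to 30 nucleotides on the BGISEQ platform from 1 library of 4 pooled samples at each of days 0, 1 and 3. Per the labels, the reads were processed against GRCm38.p6, and the submitters' processing notes name HISAT and Bowtie2 without versions. The authors deposited a read count for each of 1138 miRNAs, not normalized, and an expression value, treated as a score because how the authors made it is not given in the sources used here.

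Counts were divided by the library total to give CPM. Levels carry exact Clopper-Pearson intervals, ratios between libraries exact conditional binomial intervals, differences between members exact conditional odds ratio intervals, and shares Wilson intervals. With 1 library per time point no replicate test was made. A called miRNA differed at least 2-fold with at least 10 reads in 1 of the 2 libraries, and 0 reads in the other counted as past the fold. The calling was tested on simulated data, whose outcome is not given here, so nothing is drawn from it.

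The members and lists were chosen with earlier results of these data known. Named were all members, their other arms, the listed miRNAs and the 3 nearest by pattern. Alternatives were TMM (edgeR 4.0.16), median-of-ratios factors (DESeq2 1.42.0), totals without the 10 most abundant miRNAs, the deposited expression score, 1 CPM added, minimums of 100 or 1 reads, folds of 1.5 or 4, the family without miR-148a-3p, and, chosen after seeing the data, reads without scaling. Sequences came from RefSeq GRCm38.p6 and gene positions from GENCODE M21. Analyses used scipy 1.17.1, pandas 2.3.3 and numpy 2.4.6 in Python 3.11.15, with R 4.3.3 for the factors and matplotlib 3.10.9 for plots.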

Additional observations from a re-analysis of the deposited data

How the results depend on the processing

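The limits are 1 pooled library per day, few reads for miR-148a-5p and miR-148b-3p on day 0, and the dependence on the library total. No call of a member turned to the opposite direction under an alternative. The summed family's log2 ratio on day 1 relative to day 0 was 1.27 with TMM, 1.17 with median-of-ratios factors, 1.60 without the 10 most abundant miRNAs, 1.59 with the expression score, 1.81 without scaling and 1.71 without miR-148a-3p. On day 3 relative to day 0 it was 0.058, -0.13, 0.48, 0.67, 1.19 and 0.40 in the same order. On day 3 relative to day 1 it was -0.92 with the expression score and -0.62 without scaling. Members called higher on day 1 went from 4 to 1 with median-of-ratios factors or a fold of 4. That 4, like the 3 called higher on day 3, includes miR-148a-5p, from whose calls nothing is drawn. Members called higher on day 3 relative to day 0 went from 3 to 0 with TMM, median-of-ratios factors or a fold of 4, and median-of-ratios factors called 1 member lower. They went to 2 without the 10 most abundant miRNAs, where miR-148a-3p had a log2 ratio of 0.96 (283 of all 569 tested higher). Those 2 were miR-148b-3p, at 1.06, and miR-148a-5p. With 1 CPM added, where miR-148a-5p had 0.89 (296 higher), and with a minimum of 100 reads (195 higher), 2 members were also called higher. miR-148b-3p, with 41 reads on day 0 and 140 on day 3, met that minimum only through the library in which it was higher. Nothing is drawn from its call under the minimum of 100. Members called lower on day 3 relative to day 1 went from 2 to 1 with the expression score (72 of all 583 tested) or without scaling, the member lost being miR-148a-3p, and to 0 with a fold of 4. The members' shares within the family (9 values) and the -5p share of Mir148a (3 values) stayed within their counting intervals with the expression score. The score of each member was between 97.6% and 100% of its reads, so these shares could hardly move and nothing is drawn from this. With a minimum of 1000 reads, 2 of the 3 miRNAs nearest to miR-148a-3p and to miR-152-3p, and 1 of those nearest to miR-148b-3p and to the sum, were the same.

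Over all miRNAs, 294 were higher and 64 lower on day 1 relative to day 0, against 187 and 129 with TMM, 176 and 138 with median-of-ratios factors, 152 and 37 with a minimum of 100 reads, 551 and 165 with 1 read, and 180 and 13 with a fold of 4. Lower calls were 110 without the 10 most abundant miRNAs and 107 with the expression score. On day 3 relative to day 0, 333 were higher and 57 lower, against 126 lower with TMM, 208 and 141 with median-of-ratios factors, 93 lower without the 10 most abundant, 195 higher with a minimum of 100 reads, 630 and 157 with 1 read, 87 lower with a fold of 1.5, and 221 and 18 with a fold of 4. On day 3 relative to day 1, 146 were higher and 103 lower, against 87 and 52 with a minimum of 100 reads, 360 and 271 with 1 read, 158 lower with a fold of 1.5, 76 and 34 with a fold of 4, and 229 and 59 without scaling. The cause of these moves was not tested beyond the common shift of each scaling.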
